A study of Canis lupus familiaris with 6 samples.

Results

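The genes described here encode the proteins of the mitochondrial ribosome. They were taken from the gene table as all protein-coding genes whose symbol is MRPL or MRPS followed by a number and, at most, 1 letter. The rule found 76 genes among 19550 protein-coding genes and 35993 genes in all. Of these, 49 carry an MRPL symbol and are counted with the large subunit, and 27 carry an MRPS symbol and are counted with the small subunit. No measured value was used to choose them.

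The mitochondrial ribosome translates the few proteins that the mitochondrial genome encodes, all of them core subunits of oxidative phosphorylation. Its small subunit holds the 12S rRNA and decodes the mRNA, and its large subunit holds the 16S rRNA and forms the peptide bonds. Both rRNAs are transcribed from mitochondrial DNA, whereas every ribosomal protein is encoded in the nucleus, made in the cytosol and imported, so that the particle needs the products of both genomes.

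RNA-Seq was performed on CPEK cells, a canine epidermal keratinocyte line labelled as wild type, in 6 libraries. In 3 dCAMP libraries, cells near confluence were exposed directly to cold atmospheric microwave plasma for 30 s, and in 3 gas libraries to the gas without plasma. The medium was replaced after 15 min, and RNA was collected 24 h later in both groups. All cells belong to 1 line, untreated cells were not analysed here, and the labels do not say whether the 3 libraries of a group came from separate cultures, so the p-values measure the spread between these libraries only.

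The libraries held between 43084921 and 54082634 counts. Expression is given as CPM (counts scaled to a common library size after normalization by edgeR's TMM method), listed in the order of libraries 1, 2 and 3 of a group. The gas libraries were less alike than the dCAMP libraries: divided by its degrees of freedom, the chi-square of pairs of replicates over genes, which sampling noise would put near 1, ran from 85.4 to 318 in gas and from 6.5 to 10.2 in dCAMP. All 8 keratinocyte markers were detected, with a summed level of 47250 to 56930 CPM in gas and 43850 to 46680 CPM in dCAMP libraries, and 1 of them was called higher and 2 lower. The summed markers of other cell types stayed at 6.51 to 7.1 CPM for fibroblasts (7 genes, LUM and DCN at 0), 7.12 to 11.4 CPM for melanocytes (6 genes, TYR and DCT at 0), 0.49 to 1.99 CPM for leukocytes (5 genes, PTPRC, CD3E and MS4A1 at 0) and 15.6 to 24.7 CPM for endothelium (4 genes, PECAM1 at 0). Of these lists, 1 fibroblast gene was called lower (COL1A1, 26 to 83 counts per library). Called higher were 1 melanocyte gene (MLANA, 0 to 16 counts) and 2 endothelial genes (CDH5, 18 to 40 counts, and KDR, 158 to 277 counts). All calls of markers were made at an unadjusted p under 0.05, where 13.9% of all genes tested were called lower and 6.81% higher. The part of these markers in the results was not tested.

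All mitochondrial ribosomal protein genes were well expressed. The mean FPKM (fragments scaled for transcript length and sequencing depth, the unit in which levels of different genes can be set side by side) ranged from 12.5 to 153, with a median of 41.0 over the 76 genes, 47.5 over the large subunit and 37.2 over the small subunit. These means stood between percentiles 73.3 and 97.8 of all 19550 protein-coding genes, including those with too few counts to be tested. Although the proteins are built into the particle at 1 copy each, with few exceptions such as the stalk protein MRPL12, the highest mRNA level was 12.2 times the lowest.

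**Figure D1:**
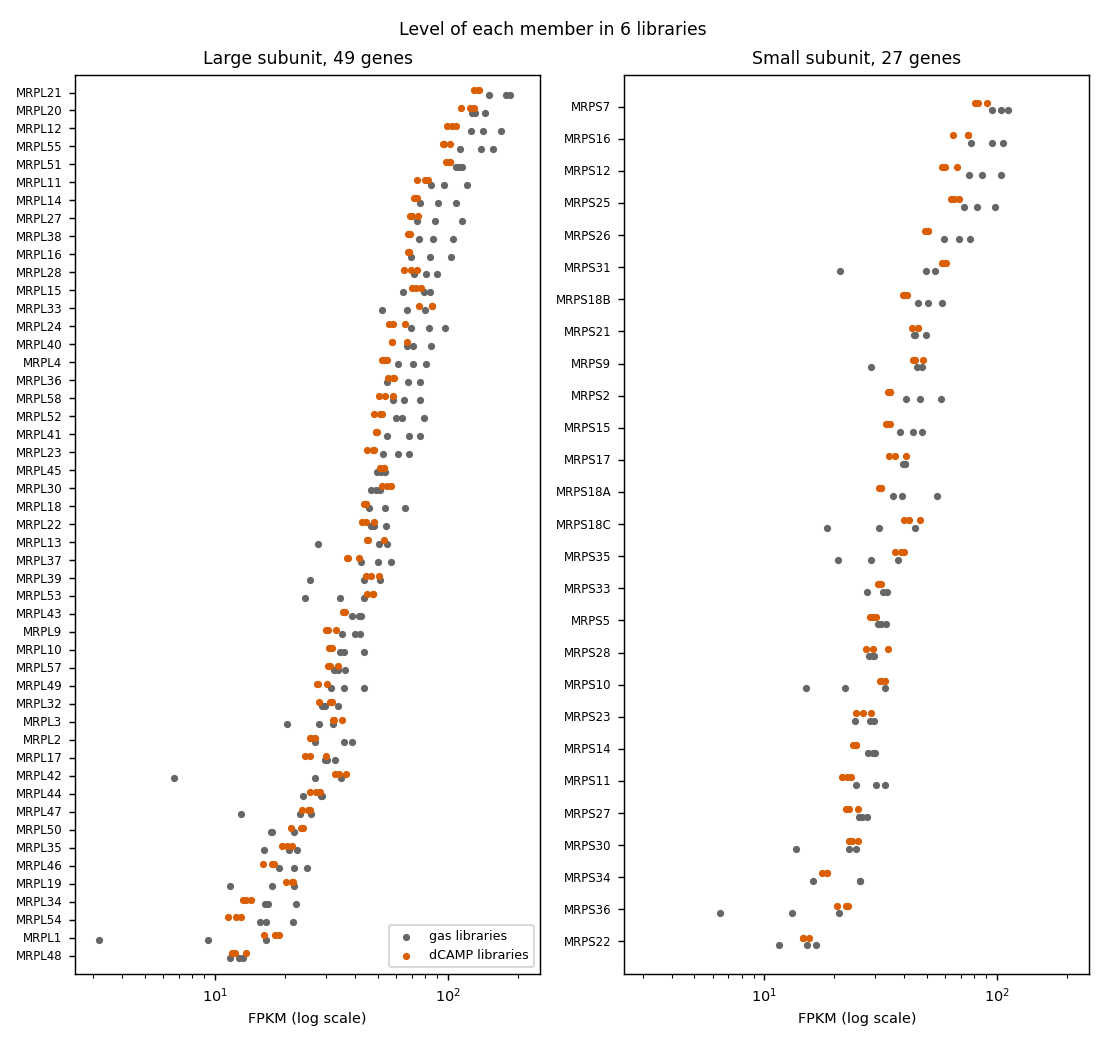
FPKM of each mitochondrial ribosomal protein gene (log axis), 1 point per library, with the 49 large subunit genes on the left and the 27 small subunit genes on the right, each ordered by the mean over 6 libraries. Most genes lay within a narrow band across libraries, while gas 1 lay far below the dCAMP libraries in MRPL42 and MRPS31, and gas 1 and gas 2 both did in MRPL1 and MRPS36.

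MRPL21, whose product is related to a bacterial large subunit protein, had the highest level, with 186, 177 and 151 FPKM in the gas libraries and 136, 136 and 130 FPKM in the dCAMP libraries. MRPL20, the next in order, had 145, 131 and 128 FPKM in gas and 114, 129 and 125 FPKM in dCAMP libraries. The ranges of these neighbours overlapped, although MRPL21 lay above MRPL20 within every library. MRPL12 (mean of 125 FPKM) and MRPL55 (mean of 117 FPKM) followed, with overlapping ranges, and their order was reversed in dCAMP 3 (99.4 and 102 FPKM). In the small subunit, MRPS7, a protein of the subunit's head, was highest with a mean of 94.4 FPKM, before MRPS16 with 82.4 FPKM and MRPS12 with 75.2 FPKM. Their ranges overlapped too, but within every library they kept this order. At the lower end stood MRPL48 with 11.6, 13.2 and 12.7 FPKM in gas and 12.2, 11.8 and 13.6 FPKM in dCAMP libraries, and MRPS22 with a mean of 14.8 FPKM. MRPL1 had a mean of 13.7 FPKM between them, although its libraries ran from 3.18 FPKM in gas 1 to 18.8 FPKM in dCAMP 2.

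The comparison of dCAMP with gas asks how the 24 h after plasma exposure changed these mRNAs. In dCAMP-treated cells, 30 of the 76 genes (39.5%) were called lower and 0 were called higher at an unadjusted p under 0.05 in edgeR's quasi-likelihood test, against 13.9% of all 14708 genes tested called lower and 6.81% called higher. The 2 subunits gave nearly the same share: 19 of 49 large subunit genes (38.8%) and 11 of 27 small subunit genes (40.7%) were called lower. The differences were modest in size, with log2 fold changes of -0.55 to -0.24 among the called genes, of which MRPS14 decreased by 15.05% and MRPL54 decreased by 31.8%, and no member changed 2-fold, against 1.09% of all genes at this p. After Benjamini-Hochberg adjustment over all genes, 0 members and 0 of the 14708 genes passed 0.05 (smallest adjusted p of a member 0.221). In bulk RNA, fewer cells that express a gene and less of its RNA per cell cannot be told apart.

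The median log2 fold change was -0.207 over the 76 genes, -0.215 over the large and -0.119 over the small subunit, against 0.03 for all genes tested and 0.01 for the protein-coding ones. The fold change was negative in 53 of the 76 genes (69.7%), against 47.6% of all genes tested. In 41 genes every dCAMP library lay below every gas library (28 large, 13 small), against 20.9% of all genes tested. In 3 genes every dCAMP library lay above, against 19%. The number called lower depended on single libraries: it was 14 without gas 2, 11 without dCAMP 1, 19 without dCAMP 2 and 11 without dCAMP 3, where 5.82%, 5.75%, 6.57% and 4.7% of all genes were called lower. Without gas 1 it was again 30, of which 28 were also called with all libraries, where 11.8% of all genes were called lower. Without gas 3 it was 41, with 10 members called higher and 43 at an adjusted p under 0.05, where 25.5% and 23.8% of all genes were called lower and higher and 33.1% passed the adjusted threshold. With limma's voom and sample quality weights, 48 members were called lower and 13 higher, where 30.4% and 34.5% of all genes were, and 57 members and 60.8% of all genes passed the adjusted threshold. Each of the 30 genes called with all libraries kept a negative fold change in all the settings and omissions tried. The groups did not overlap in any of these 30, which were chosen by this contrast. Omitting a library could therefore hardly change their sign, and the kept sign is no separate support.

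**Figure D2:**
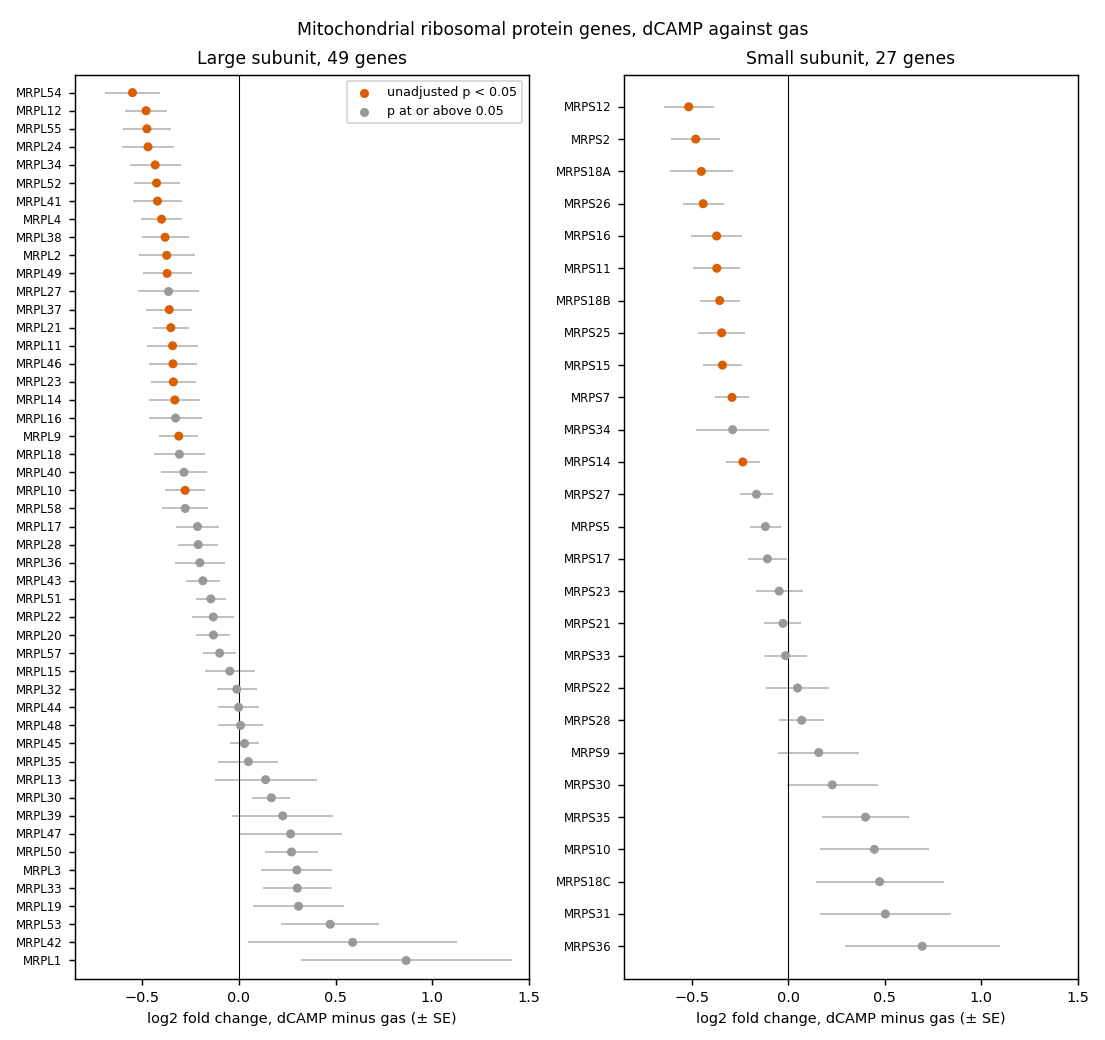
Log2 fold change (dCAMP minus gas, bars ± SE from edgeR's quasi-likelihood test on 3 libraries per group) of each mitochondrial ribosomal protein gene, with genes at an unadjusted p under 0.05 in orange. All called genes lie left of 0, and the longest error bars are those of MRPL1 and MRPL42, to the right of 0.

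MRPL12, the stalk protein that recruits translation factors to the large subunit, had the smallest p of all members. Its level was 347, 300.1 and 269 CPM in the gas libraries and 220, 227 and 209 CPM in the dCAMP libraries. All gas libraries lay above all dCAMP libraries, and the log2 fold change was -0.48 (SE 0.11, adjusted p = 0.221); the gene lies on chromosome 9, 493536 to 498154 (CanFam3.1, as all positions here). MRPL54, a protein with no bacterial counterpart, had the most negative fold change of the members at -0.55 (SE 0.14). It was at 53.3, 41.9 and 39.8 CPM in gas and 28.7, 30.8 and 32.5 CPM in dCAMP libraries (chromosome 20, 55709341 to 55712729), again without overlap.

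MRPL55 (chromosome 14, 826731 to 830107) gave 97.1, 89.4 and 72.8 CPM in gas libraries and 61.6, 60.0 and 64.6 CPM in dCAMP libraries. MRPL4 (chromosome 20, 50836263 to 50843311), a protein that lines the tunnel through which the nascent chain leaves, gave 148, 134 and 116 CPM in gas and 101, 102 and 98.2 CPM in dCAMP libraries. In both genes the lowest gas library, gas 3, stood clear of the highest dCAMP library, with log2 fold changes of -0.48 (SE 0.13) and -0.40 (SE 0.11). MRPL21 (chromosome 18, 49090521 to 49104052) was at 177, 174 and 149 CPM in gas and 134, 132 and 126 CPM in dCAMP libraries, a log2 fold change of -0.35 (SE 0.09). MRPL52 (chromosome 8, 3177010 to 3181526) was at 75.1, 62.3 and 58.8 CPM in gas and 46.8, 50.0 and 49.1 CPM in dCAMP libraries, a log2 fold change of -0.43 (SE 0.12). The loci of these last genes overlap IGHMBP2 and SLC7A7, and how reads shared by overlapping genes were counted is not given in the sources used here; the same holds for 22 of the 76 members and for 9 of the 30 called. The other 13 called large subunit genes had log2 fold changes between -0.47 (MRPL24) and -0.28 (MRPL10).

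Among the small subunit genes, MRPS26 (chromosome 24, 18215055 to 18216993), a protein found in mitochondrial ribosomes only, had the smallest p. It was measured at 89.2, 82.6 and 71.4 CPM in gas and at 58.9, 59.9 and 60.3 CPM in dCAMP libraries, with a log2 fold change of -0.44 (SE 0.11, adjusted p = 0.221). MRPS12 (chromosome 1, 114189101 to 114192557), which reaches into the decoding centre, had the most negative fold change of the subunit, -0.52 (SE 0.13), from 97.6, 83.5 and 74.0 CPM in gas to 57.9, 64.7 and 55.7 CPM in dCAMP libraries. Neither gene overlapped between the groups, and in both gas 1 was the highest and gas 3 the lowest of the gas libraries.

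MRPS2 (chromosome 9, 51211701 to 51214465), related to a bacterial small subunit protein, was at 97.6, 81.3 and 71.7 CPM in gas and 59.4, 59.9 and 60.4 CPM in dCAMP libraries, a log2 fold change of -0.48 (SE 0.13). MRPS7 (chromosome 9, 5231612 to 5235383) was at 165, 158 and 146 CPM in gas and 126, 135 and 122 CPM in dCAMP libraries, a smaller difference of -0.29 (SE 0.09) on the log2 scale. Its locus overlaps GGA3 and MIF4GD. MRPS15 (chromosome 15, 5836267 to 5841581), an rRNA-binding protein of the small subunit, had 72.7, 68.6 and 60.8 CPM in gas and 52.5, 54.3 and 52.8 CPM in dCAMP libraries, with a log2 fold change of -0.34 (SE 0.10). MRPS18B (chromosome 12, 435117 to 441406), 1 of 3 mammalian relatives of a single bacterial protein, had 73.1, 65.6 and 59.7 CPM in gas and 51.1, 52.9 and 51.1 CPM in dCAMP libraries, with a log2 fold change of -0.36 (SE 0.10). MRPS16 (chromosome 4, 23827690 to 23829319) had 86.3, 79.1 and 65.3 CPM in gas and 54.2, 61.8 and 62.3 CPM in dCAMP libraries, with a log2 fold change of -0.37 (SE 0.13). In each of these genes the groups did not overlap and the dCAMP libraries lay closer together than the gas libraries; the groups came closest in MRPS16, at gas 3 and dCAMP 3.

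The proteins of the mitochondrial ribosome fall into those with a counterpart in the bacterial ribosome and those found in mitochondria only. In the large subunit, 12 of 30 genes with a bacterial counterpart were called lower (median log2 fold change -0.25), as were 7 of 19 mitochondria-specific genes (median -0.19). In the small subunit these counts were 8 of 15 (median -0.235) and 2 of 9 (median -0.05), with MRPS36, MRPS18A and MRPS30 listed in neither class. In the order given, the shares called lower were 40%, 36.8%, 53.3% and 22.2%, against 13.9% of all genes tested. Whether the classes differ was not tested. MRPS18A and MRPS30 have small subunit symbols but sit in the large subunit of the assembled particle. MRPS18A was at 49.3, 36.4 and 33.1 CPM in gas and 29.0, 29.2 and 28.7 CPM in dCAMP libraries (log2 fold change -0.45, SE 0.16), whereas MRPS30 was at 21.3, 37.0 and 39.9 CPM in gas and 38.0, 40.1 and 36.8 CPM in dCAMP libraries (0.23, SE 0.24). The MRPS18A groups did not overlap, while in MRPS30 only gas 1 stood below the rest, and without gas 1 its log2 fold change was -0.02. As an alternative, MRPS18A and MRPS30 were counted with the large subunit, with MRPS36 left in the small. Then 20 of 51 large (39.2%) and 10 of 25 small subunit genes (40%) were called lower, against 13.9% of all genes.

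The 46 genes that were not called were of several kinds. MRPL20 was at 124, 115 and 113 CPM in gas and 100.3, 113 and 109 CPM in dCAMP libraries, a log2 fold change of -0.13 (SE 0.09), with gas 3 and dCAMP 2 nearly equal. MRPL48 gave 13.2, 15.5 and 14.9 CPM in gas and 14.3, 13.7 and 15.8 CPM in dCAMP libraries (0.01, SE 0.12), with wholly overlapping groups. MRPS22, a mitochondria-specific protein, gave 17.3, 25.9 and 23.8 CPM in gas and 22.8, 23.9 and 22.6 CPM in dCAMP libraries (0.05, SE 0.16), with gas 1 lowest and gas 2 highest of all libraries. For the last pair the direction depended on the normalization: with upper-quartile factors the log2 fold change was -0.08 for MRPL48 and -0.03 for MRPS22.

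The most positive fold changes belonged to MRPL1 and MRPS36, and neither was called. MRPL1 (chromosome 32, 2307485 to 2457587), a protein of the mobile stalk beside the site where tRNA leaves, was at 6.29, 19.4 and 34.95 CPM in gas and 33.9, 39.0 and 37.8 CPM in dCAMP libraries, with a log2 fold change of 0.87 (SE 0.55). MRPS36 (chromosome 2, 54302992 to 54311943), also known as a component of the oxoglutarate dehydrogenase complex, was at 10.0, 21.1 and 33.9 CPM in gas and 33.0, 35.6 and 36.6 CPM in dCAMP libraries, with a log2 fold change of 0.69 (SE 0.40). In both genes gas 3 lay within the dCAMP range, gas 2 below it and gas 1 lower still. Their fold changes were 0.43 and 0.34 without gas 1, and 1.47 and 1.13 without gas 3, when both were called higher at an unadjusted p under 0.05 and MRPS36 also at an adjusted p (0.0421).

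**Figure D3:**
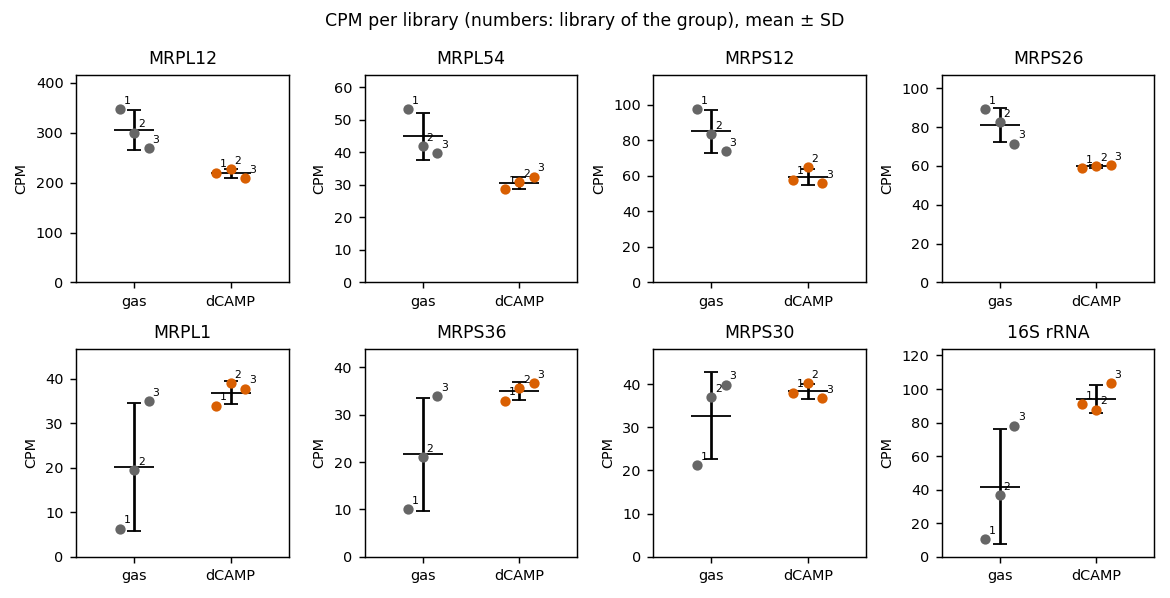
CPM of 7 mitochondrial ribosomal protein genes and of the 16S rRNA in each library, with the mean and SD of each group of 3. The upper row shows genes called lower, in which gas 1 is the highest point, and the lower row shows genes with a positive fold change, in which gas 1 is the lowest point.

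In 3 genes every dCAMP library lay above every gas library, none of them called; they are named for that pattern, seen in their values. MRPL53, a mitochondria-specific protein, was at 54.9, 89.5 and 115 CPM in gas and 120, 116 and 123 CPM in dCAMP libraries. MRPS31, also mitochondria-specific, was at 31.0, 73.6 and 82.2 CPM in gas and 87.2, 89.0 and 88.8 CPM in dCAMP libraries. In both, gas 3 came near the dCAMP libraries and gas 1 was far below. MRPL30 was at 36.7, 39.6 and 41.8 CPM in gas and 44.8, 41.9 and 46.0 CPM in dCAMP libraries, so that gas 3 and dCAMP 2 were nearly equal.

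The genes thus differed in the direction in which gas 1 departed. For each gene, the log2 CPM of each library was set against the mean of the dCAMP libraries. Over the 30 genes called lower, the median departure was 0.56 in gas 1, 0.37 in gas 2 and 0.19 in gas 3, and gas 1 lay above all the other libraries in 29 of them. Over the 23 genes with a positive fold change (0.01 to 0.87, median 0.27), it was -0.85 in gas 1, -0.23 in gas 2 and 0.03 in gas 3, and gas 1 lay below all the other libraries in 21. These sets were formed by the same contrast, so the values are a description. In the remaining 23 genes, negative but not called, the log2 fold change had a median of -0.15 and the departures had medians of 0.18, 0.17 and 0.11. Over all 76 members, gas 1 lay above all the other libraries in 55.3% and below them all in 32.9%. Among all genes tested these shares were 36.9% and 39%, so that an extreme gas 1 was not particular to the members.

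**Figure D4:**
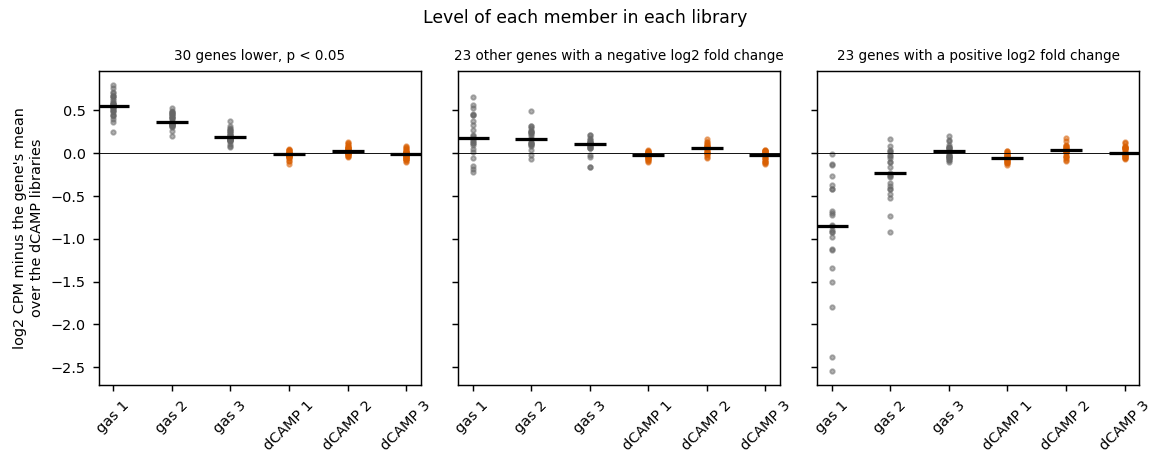
Log2 CPM of each gene in each library minus the gene's mean over the 3 dCAMP libraries, for the 30 genes called lower, the 23 other genes with a negative fold change and the 23 with a positive one; points are genes and bars are medians. The dCAMP libraries stay near 0, and gas 1 departs most, upward on the left and downward on the right.

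Gas 1 was the gas library farthest from the dCAMP mean in 66 of the 76 genes, gas 2 in 6 and gas 3 in 4, and gas 3 was the nearest in 59. Among all genes tested, gas 1 was the farthest in 74.3% and gas 3 the nearest in 68.9%. The SD of log2 CPM had a median of 0.20 among the gas and 0.06 among the dCAMP libraries, and it was larger among the gas libraries in 68 of 76 genes (89.5%, against 81.6% of all genes tested). The widest gas SD belonged to MRPL42, with 1.30 against 0.07 in dCAMP libraries, which was at 8.71, 35.7 and 46.5 CPM in gas and 43.7, 48.1 and 44.95 CPM in dCAMP libraries. The narrowest belonged to MRPS17, at 33.1, 34.0 and 33.5 CPM in gas and 30.7, 34.0 and 28.7 CPM in dCAMP libraries. The genes called lower had a median level of 55.9 FPKM, the other negative ones 45.4 FPKM and the positive ones 29.7 FPKM, with similar median transcript lengths of 1093, 995 and 1137 bases.

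Summed over the members, the large subunit mRNAs made up 3522, 3399 and 3205 CPM in gas and 2899, 3011 and 2894 CPM in dCAMP libraries, without overlap. The small subunit mRNAs made up 1442, 1514 and 1498 CPM in gas and 1340, 1412 and 1367 CPM in dCAMP libraries, also without overlap. The ratio of the large to the small subunit sum was 2.44, 2.25 and 2.14 in gas and 2.16, 2.13 and 2.12 in dCAMP libraries, so that gas 3 lay inside the dCAMP range and gas 1 was the highest.

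The 2 rRNAs of the particle are genes of the mitochondrial chromosome. The 16S rRNA (positions 1091 to 2670) was at 10.5, 36.7 and 78.2 CPM in gas and 90.9, 87.7 and 103 CPM in dCAMP libraries, a log2 fold change of 1.17 (SE 0.63) that was not called. The 12S rRNA (positions 70 to 1023) was at 28.1, 69.9 and 88.5 CPM in gas and 95.6, 83.2 and 90.6 CPM in dCAMP libraries, with 0.53 (SE 0.39). The groups did not overlap for the 16S rRNA and overlapped for the 12S rRNA, with gas 1 the lowest library in both. The libraries were prepared with an mRNA kit, so these values are not the amount of rRNA in the cell. The 13 protein-coding genes of the mitochondrial chromosome, whose mRNAs this ribosome translates, had log2 fold changes of 0.06 to 1.36 (median 0.64), none called, and overlapped between the groups in all 13. Their summed level was 4929, 14193 and 23731 CPM in gas and 21658, 22209 and 21655 CPM in dCAMP libraries, so that gas 1 was the lowest library and gas 3 lay above the dCAMP libraries.

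The particle is built with the help of GTPases, helicases, rRNA methyltransferases and other assembly factors. Of 26 listed assembly factors, 24 were found and tested, with a median log2 fold change of -0.30. Of the 24, 14 (58.3%) were called lower and 0 higher, against 13.9% and 6.81% of all genes tested. DDX28, a helicase needed for large subunit assembly, was at 29.8, 25.7 and 22.96 CPM in gas and 16.8, 19.1 and 17.1 CPM in dCAMP libraries (-0.56, SE 0.13). C1QBP, a matrix protein required for mitochondrial translation, was at 353, 304 and 261 CPM in gas and 223, 219 and 214 CPM in dCAMP libraries (-0.48, SE 0.12). All gas libraries of both genes lay above the dCAMP libraries.

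Of 17 listed translation factors, 14 were tested, and 2 (14.3%, against 13.9% of all genes) were called lower and 0 (against 6.81%) higher. The median log2 fold change was 0.30, and the median departure from the dCAMP mean was -0.63 in gas 1, -0.20 in gas 2 and 0.01 in gas 3. Those called were TUFM, the mitochondrial elongation factor Tu, at 383, 342 and 280.4 CPM in gas and 258, 251 and 253 CPM in dCAMP libraries (-0.40, SE 0.12), and OXA1L, the insertase that receives nascent chains at the inner membrane, at 108, 91.8 and 82.6 CPM in gas and 75.4, 73.3 and 74.5 CPM in dCAMP libraries (-0.34, SE 0.12). Neither overlapped between the groups. Of the 14 factors, 4 had every dCAMP library below every gas library (20.9% of all genes tested) and 5 had every one above (19%).

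Further subunits of the particle do not carry an MRP symbol. Of 6 listed, 5 were tested and 2 (40%, against 13.9% of all genes) were called lower. GADD45GIP1, a large subunit protein, was at 28.2, 26.7 and 22.9 CPM in gas and 20.2, 20.6 and 20.8 CPM in dCAMP libraries (-0.34, SE 0.11), without overlap. AURKAIP1, a small subunit protein, was at 78.3, 67.6 and 55.3 CPM in gas and 50.1, 52.4 and 55.4 CPM in dCAMP libraries (-0.35, SE 0.14), and dCAMP 3 was level with gas 3.

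**Figure D5:**
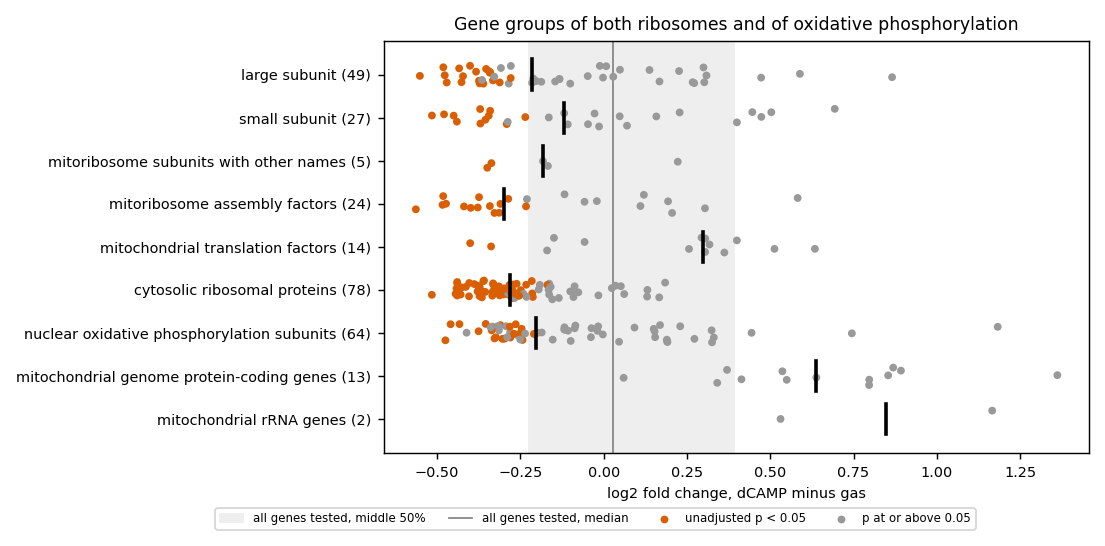
Log2 fold change (dCAMP minus gas) of each tested gene in 9 groups, with the number tested in parentheses, genes at an unadjusted p under 0.05 in orange and group medians as black bars; the vertical line and band are the median (0.03) and the interquartile range of all 14708 genes. The medians of the ribosomal protein groups and the assembly factors lie left of the line, and those of the translation factors and the mitochondrial genes lie to its right.

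Genes of the cytosolic ribosome and of the respiratory chain were called lower as well. Of 78 cytosolic ribosomal protein genes, 52 (66.7%) were called lower and 0 higher, with a median log2 fold change of -0.28, and of 64 tested nuclear genes for oxidative phosphorylation subunits, 21 (32.8%) were called lower and 0 higher, with a median of -0.20. Of all genes tested, 13.9% were called lower and 6.81% higher. No test was made of whether the shares of the cytosolic ribosome and oxidative phosphorylation groups differ from that of the mitochondrial ribosomal proteins.

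At the transcript level, 39 of the 76 genes had 1 annotated transcript and 37 had several, 153 transcripts in all. Among 114 transcripts of genes with several, the share of the gene's FPKM did not overlap between the groups in 16 (14%), 8 higher and 8 lower in dCAMP libraries, against 8.09% of transcripts over all genes tested. The 16 transcripts belonged to 9 genes, and shares within a gene are not independent, since a higher share of 1 transcript lowers the others. Among the 16, XM_022426082 of MRPS18A had only 0 to 8 counts per library. In MRPL55, transcript XM_843940 made up 55.9% to 64.1% in gas and 71.1% to 74.0% in dCAMP libraries, and XM_005628353 made up 20.5% to 34.1% and 16.1% to 17.5%. In MRPL52, transcript XM_005623210 made up 76.7% to 80.1% in gas and 63.4% to 73.6% in dCAMP libraries, and XM_537363 made up 8.2% to 11.5% and 15.1% to 20.2%. In MRPL13, the main transcript XM_005627899 went from 89.6% to 94.4% in gas to 84.3% to 88.5% in dCAMP libraries. These shares rest on the assignment of reads among transcripts that share exons, and they carry no test.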

How the data were processed

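RNA was made into libraries with the TruSeq Stranded mRNA kit. Per the study's methods and the submitters' processing notes, reads were checked with FastQC 0.11.7, trimmed with Trimmomatic 0.38, aligned to CanFam3.1 by HISAT2 2.1.0 and assigned to known transcripts by StringTie 2.1.3b; the annotation release and the strand setting are not given in the sources used here. The authors deposited raw counts for genes and transcripts, and FPKM values that the authors scaled by length and by mapped reads. TPM columns, 6 in either table, were left out.

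The analysis started from the deposited counts (R 4.3.3, edgeR 4.0.16, limma 3.58.1, DESeq2 1.42.0). The 14708 genes that filterByExpr kept, all 76 members among them, were TMM-normalized, and 3 dCAMP were compared with 3 gas libraries by the quasi-likelihood test of edgeR (prior count 2, Benjamini-Hochberg adjustment over all genes). The SE is the log2 fold change divided by the root of the F statistic. Positions come from the deposited transcript table. All 76 identifiers were found in RefSeq's gene table (UU_Cfam_GSD_1.0), 75 with the same symbol.

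The members, gene lists and tests were chosen with earlier results of these data known. Genes given with values are the 6 of each subunit with the smallest p, the 3 with the highest and the 1 with the lowest mean FPKM, the extreme fold changes of each subunit, MRPS30, MRPS18A, both rRNAs, and the 2 genes with the smallest p among assembly factors, translation factors and other subunits. MRPL53, MRPL30, MRPS31, MRPL42, MRPS17, the ends of ranges and the transcripts named were added after their values were seen. Alternatives were DESeq2; RLE or upper-quartile factors; no filter or a minimum of 10 counts per library; a block on the replicate number; voom with weights for libraries; limma on log2(FPKM + 1) and log2(FPKM + 0.1); a lowess correction for length (span 0.3), alone or with the block; and omission of single libraries. In simulated data with 200 of 14708 genes changed 3-fold, edgeR recovered 99% and 98% at dispersions of 0.01 and 0.05 (9 and 8 false calls), and DESeq2 98% and 96% (13 and 20 false calls). The simulation checked the code only. It gave both groups the same dispersion and used larger changes than those of the called members, so its rates do not carry over to this comparison.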

Additional observations from a re-analysis of the deposited data

How the results depend on the processing

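The 30 genes called lower kept a negative fold change under all alternatives run. Since their groups did not overlap, this could hardly turn out otherwise when a library was left out. DESeq2, RLE and upper-quartile factors, the filters on low counts and FPKM plus 1 or plus 0.1 gave 29 to 32 members called lower and 0 higher, and the length correction gave 25 and 0. Of all genes, 10.5% to 15.4% were called lower and 5.34% to 11.9% higher in the former settings. With the length correction these shares were 15.2% and 5.95%. Upper-quartile factors moved the median log2 fold change to -0.306 in the large and -0.208 in the small subunit. With voom and sample quality weights, 32 large and 16 small subunit genes were called lower (30.4% of all genes) and 8 and 5 higher (34.5% of all genes), and 57 members passed an adjusted p of 0.05, as did 60.8% of all genes; the cause was not tested.

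Leaving out 1 library at a time gave 8 to 28 large and 3 to 13 small subunit genes called lower, 0 to 6 and 0 to 4 called higher, and 0 to 43 with an adjusted p under 0.05. Of all genes, 4.7% to 25.5% were called lower, 2.16% to 23.8% higher, and 0% to 33.1% passed the adjusted threshold. The median log2 fold changes ran from -0.358 to -0.207 in the large and from -0.205 to -0.124 in the small subunit, lowest without gas 3 and dCAMP 2. The lowest counts came without dCAMP 1 or dCAMP 3 and the highest without gas 3; among these omissions, the calls of higher genes and the 43 came without gas 3 only. Without gas 1, 28 of the 30 genes were still called, where 11.8% of all genes were called lower. In this omission, 8 of the 23 genes with a positive fold change turned negative.

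The labels do not say whether libraries of the same replicate number were paired. Deviations from the group means correlated at 0.13, 0.02 and 0.05 between libraries of the same number. Gas 1 correlated best with dCAMP 1, gas 2 with dCAMP 2, and gas 3 with dCAMP 2 (0.09). Correlations this weak cannot decide whether there was a pairing. With the replicate block, 14 large and 7 small subunit genes were called lower (9.31% of all genes), and with the block and the length correction 9 and 3 (10.1% of all genes), with 1 called higher in each subunit (10.6% of all genes).

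Among the named genes, 14 of 476 values changed sign, in MRPL48, MRPS22 and MRPS30. MRPL48 had log2 fold changes of -0.007 with DESeq2, -0.001 with RLE factors, -0.076 with upper-quartile factors, -0.001 without a filter, -0.015 with at least 10 counts in every library, -0.066 with voom, and -0.073, -0.019 and -0.085 without gas 1, gas 3 and dCAMP 3 (up to 0.027 without gas 2). MRPS22 had -0.030 with upper-quartile factors, -0.161 with voom, and -0.123 and -0.004 without gas 1 and dCAMP 2 (up to 0.144 without gas 2). MRPS30 had -0.022 without gas 1 and 0.351 without gas 3. Each member had at least 291 counts in each library.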
